A study of Homo sapiens with 6 samples.

Results

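The counts described here are those of 9 chaperone genes, the heat shock genes HSPA1A, HSPA1L, HSPA1B, HSPA8, HSP90AA1 and DNAJB1 and the endoplasmic reticulum (ER) genes HSPA5, HSP90B1 and CALR, together with ENSG00000267458, a gene on the strand opposite CALR. They were chosen by name, on the main chromosomes. For the members other than HSPA1A, HSPA1L, CALR and ENSG00000267458, every gene with an exon overlapping theirs on the other strand was added, which gave 5 more: WDR20, TECR, ENSG00000207707, TTC41P and UQCC6. The total was 15 of the 57209 gene identifiers in each table. A row below is the count listed under 1 identifier, and an opposite row is that of a gene whose exons overlap on the other strand. Whether a row counts RNA of its own gene or of a gene opposite was not tested, so a gene name with counts or a fold change stands for its row.

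RNA was sequenced from MB157, an established triple-negative breast cancer line whose cells carried the Cas9 nuclease by the sample titles and were grown under puromycin. One group received an sgRNA against SOX9, a transcription factor gene (SOX9 KO sgRNA in the titles, SOX9 sgRNA here), and the other a control sgRNA, each for 4 days, followed by a flow cytometry sort for the top 50% of sgRNA-expressing cells. Each group had 3 libraries, which the labels call technical replicates, so that p-values measure only the spread between these libraries. The series text speaks of cells that stably express SOX9 where the titles name Cas9, and both groups share whichever background applies; the stated aim was to learn the targets of SOX9.

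Heat shock proteins are chaperones that bind unfolded stretches of other proteins. HSP70 proteins work through cycles of ATP hydrolysis that J-domain proteins such as DNAJB1 start, and they hand clients to HSP90. Heat shock factor 1 switches on HSPA1A, HSPA1B and DNAJB1 when unfolded proteins build up in the cytosol, whereas HSPA8 is made constantly. The ER has its own set: HSPA5 (BiP) is its HSP70, HSP90B1 (GRP94) its HSP90, and CALR (calreticulin) a calcium-binding lectin that holds new glycoproteins. These ER genes respond to the unfolded protein response, through the factors ATF6 and XBP1.

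Windows of 300 bases around the RefSeq starts of the members (GRCh38.p14, 250 bases before to 50 after) were searched for the letters to which these factors are known to bind. They are shown for the HSPA1A and HSPA1B copies, which are near-identical, and for CALR, an ER gene that passed the test below, and HSPA5, the ER gene for BiP, which did not; whether their changes differ was not tested. They lie at chr6:31815293-31815592 (plus strand), chr6:31827488-31827787 (plus), chr19:12938359-12938658 (plus) and chr9:125241294-125241593 (minus). Capitals mark GAANNTTC, the paired unit of a heat shock element, or the ER stress element, CCAAT and CCACG with 9 bases between them, on either strand.
HSPA1A: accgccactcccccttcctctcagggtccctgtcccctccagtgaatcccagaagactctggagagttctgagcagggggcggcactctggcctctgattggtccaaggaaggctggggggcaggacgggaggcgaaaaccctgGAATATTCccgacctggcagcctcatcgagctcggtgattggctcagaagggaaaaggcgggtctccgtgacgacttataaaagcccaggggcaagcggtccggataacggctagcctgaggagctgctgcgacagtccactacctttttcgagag
HSPA1B: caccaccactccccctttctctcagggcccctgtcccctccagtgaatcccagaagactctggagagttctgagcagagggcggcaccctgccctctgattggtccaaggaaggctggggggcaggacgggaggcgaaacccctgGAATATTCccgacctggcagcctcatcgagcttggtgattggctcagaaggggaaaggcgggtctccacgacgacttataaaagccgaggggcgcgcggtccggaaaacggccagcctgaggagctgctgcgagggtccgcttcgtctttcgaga
CALR: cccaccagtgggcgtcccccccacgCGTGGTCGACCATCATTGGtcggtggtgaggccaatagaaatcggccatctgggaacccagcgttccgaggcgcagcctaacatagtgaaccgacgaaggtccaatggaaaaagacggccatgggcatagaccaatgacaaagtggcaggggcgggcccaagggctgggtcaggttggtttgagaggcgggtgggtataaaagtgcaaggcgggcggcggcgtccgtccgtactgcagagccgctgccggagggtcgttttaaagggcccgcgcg
HSPA5: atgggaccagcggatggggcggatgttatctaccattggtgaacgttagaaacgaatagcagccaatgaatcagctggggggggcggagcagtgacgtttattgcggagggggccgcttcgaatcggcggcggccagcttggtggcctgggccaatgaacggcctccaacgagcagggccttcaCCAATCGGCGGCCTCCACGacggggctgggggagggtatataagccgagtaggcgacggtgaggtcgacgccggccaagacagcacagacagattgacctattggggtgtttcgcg

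The HSPA1A and HSPA1B windows were identical at 277 of 299 aligned bases (92.6%), and each held GAANNTTC once. Of 35116 RefSeq windows of this length, 6.77% held these letters. The ER stress element was found in the windows of CALR, HSPA5 and HSP90B1, against 0.0769% of all windows (27 windows), and the longer heat shock element, GAANNTTC followed by 2 more bases and GAA, in that of HSPA8 and in 1 of the HSP90AA1 windows, against 0.49%. By these RefSeq starts, HSPA1A and HSPA1L start 260 bases apart and run away from each other, so that 241 bases of the HSPA1A window are also in that of HSPA1L. The GRCh37 annotation used for the counts differs: there HSPA1L starts within HSPA1A, and their exons overlap over 80 bp. These matches are letters in a window and say nothing of binding in these cells.

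Library totals ran from 776125 to 1018854 counts. SOX9 itself had 37, 39 and 60 counts in SOX9 sgRNA libraries, against 38, 52 and 44 in control libraries (log2 fold change -0.22, SE 0.259 and adjusted p = 0.70 by edgeR), and its groups overlapped. Of the epithelial and tumor markers, KRT8 had 371 to 558 counts, KRT19 134 to 251, EPCAM 31 to 68, KRT7 25 to 53 and KRT18 21 to 51. VIM, on the same list but a mesenchymal marker, had 50 to 181. The opposite row held more counts at KRT7 (KRT7-AS, 728 to 1368) and VIM (VIM-AS1, 1928 to 5118), and KRT8 and KRT18 lie opposite each other. MIEN1, opposite ERBB2, had 18 to 36. Which gene's RNA these rows count was not tested. Of the receptor genes that define triple-negative tumors by their absence or lack of amplification, ESR1 had 0 to 7 counts and PGR 3 to 7, while ERBB2 was not low, at 141 to 213. CD3E, LYZ and HBB, markers of T cells, myeloid cells and red cells, were at 0 in every library, PTPRC had 0 to 1 and COL1A1 2 to 7. Of the 7 tested genes of the epithelial and tumor marker list, 0 were higher and 3 lower in SOX9 sgRNA libraries. In edgeR 4 were at an unadjusted p under 0.05, and DESeq2 called 3. The list includes VIM, so these counts are not of epithelial markers alone. The part of this in the results below was not tested. The share of all tested genes at that unadjusted p was not counted, here or for the lists below. Across the 7959 genes that passed the filter on low counts, 9.01% passed an edgeR adjusted p of 0.05, 2.99% as higher and 6.02% as lower in SOX9 sgRNA libraries. The groups did not overlap in scaled CPM for 24.5% of tested genes. Scaled CPM are counts divided by the library's total over tested genes and by its TMM factor, times 1e6. TMM factors were 1.055 to 1.077 for SOX9 sgRNA libraries and 0.9364 to 0.94 for control libraries. With the totals over tested genes alone, called library totals from here on, 11.0% passed, 7.85% as higher and 3.13% as lower. The median over all tested genes of the log2 fold change was then 0.19 in place of 0.01. DESeq2 called 7.70%, 2.01% as higher and 5.69% as lower. Fewer cells of a kind and less RNA per cell cannot be told apart in such bulk samples.

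Of the 15 rows, 12 passed the filter. With the SOX9 sgRNA, 4 rows were higher, at the HSPA1A locus (HSPA1A and HSPA1L) and the CALR locus (CALR and ENSG00000267458), and 1, DNAJB1, was lower. Over all tested genes, 2.99% were higher and 6.02% lower. HSPA8, HSP90AA1, HSPA5 and HSP90B1 and the opposite rows WDR20, TECR and UQCC6 did not pass. With library totals 6 rows passed, all higher, and with DESeq2 4, where 11.0% and 7.70% of all tested genes passed. Scaled CPM did not overlap between the groups in 5 of the 12 tested rows, as in 24.5% of all tested genes. HSPA1B, TTC41P and ENSG00000207707 had too few counts to be tested.

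**Figure D1:**
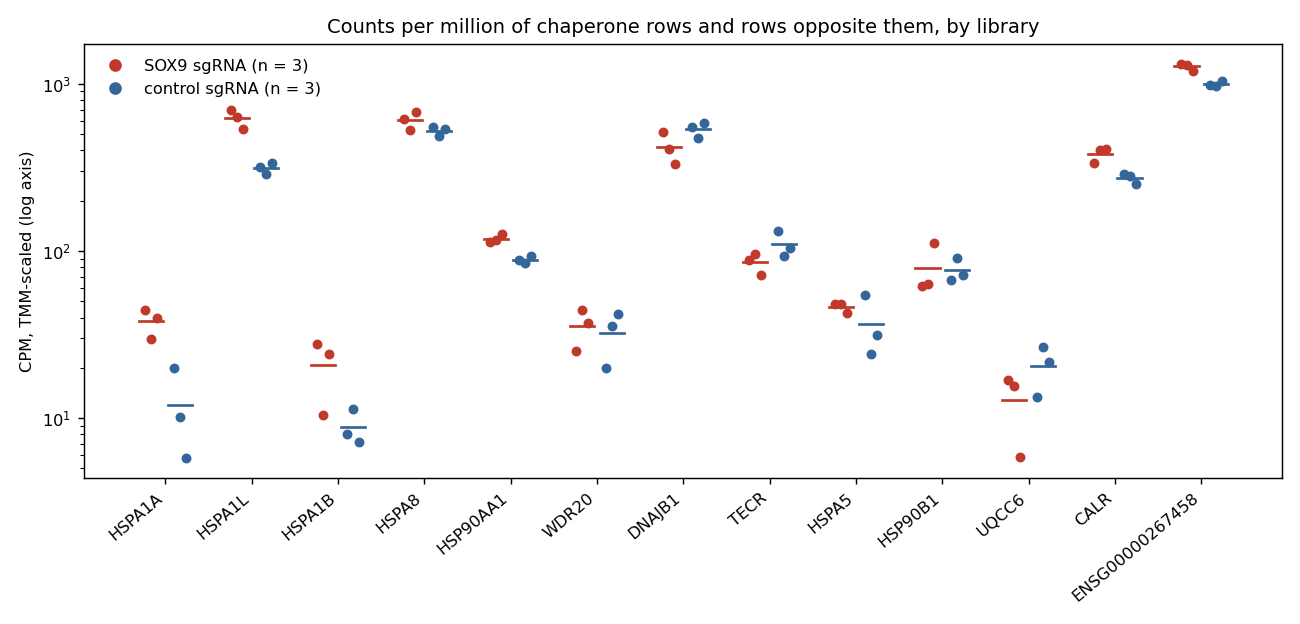
TMM-scaled CPM on a log axis for 13 rows in each library, SOX9 sgRNA left of control sgRNA, with group means as lines. The groups stand apart for HSPA1A, HSPA1L, HSP90AA1, CALR and ENSG00000267458 and overlap for the other rows. TTC41P and ENSG00000207707, with at most 5 and 8 counts, are left out.

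The stress-inducible HSP70 gene HSPA1A (ENSG00000204389, GRCh37 chromosome 6, 31783291 to 31785723, plus strand) had 37, 23 and 41 counts in SOX9 sgRNA libraries, against 15, 8 and 4 in control libraries. All 3 SOX9 sgRNA libraries were above all control libraries, also after scaling, at 38.1 ± 7.5 CPM against 12.0 ± 7.31 CPM (SD, n = 3 each). This gave a log2 fold change of 1.65 (SE 0.397 and adjusted p = 0.0023 by edgeR), a 3.14-fold rise resting on 101 counts against 27. It ranged from 1.33 to 2.22 when a library was left out, the highest value being that without control library 1.

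Its opposite row, HSPA1L (ENSG00000204390, chromosome 6, 31777396 to 31783437, minus strand), held far more counts. HSPA1L encodes an HSP70 best known from the testis. It had 576, 486 and 555 counts in SOX9 sgRNA libraries, against 237, 226 and 233 in control libraries. No library of either group came near the other group. The means were 621.9 ± 77.2 and 312.8 ± 24.2 CPM (SD, n = 3 each), a log2 fold change of 0.99 (SE 0.105 and adjusted p = 1.39e-11 by edgeR). The exons of the pair overlap over 80 bp (31783358 to 31783437), which is 3.29% of the exon length of HSPA1A and 3.05% of that of HSPA1L, at the 5′ end of both.

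HSPA1B (ENSG00000204388, chromosome 6, 31795512 to 31798031, plus strand) is the copy of HSPA1A next to it and has no exon opposite. Its counts were 23, 8 and 25 in SOX9 sgRNA libraries, against 6, 9 and 5 in control libraries. SOX9 sgRNA library 2 lay within the control range, and the row did not pass the filter. With no filter the log2 fold change was 1.19 (SE 0.521 and adjusted p = 0.40 by edgeR). Of the 50-base words of the HSPA1A transcript in GENCODE 29, 72.6% also occur in an HSPA1B transcript, so reads could be lost or moved between HSPA1A and HSPA1B and their single values are uncertain. Summed into 1 row, they had 60, 31 and 66 counts in SOX9 sgRNA libraries, against 21, 17 and 9 in control libraries, and the sum rose by 1.49 (SE 0.323 and adjusted p = 5.90e-04 by edgeR).

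The constitutive HSP70 gene HSPA8 (ENSG00000109971, chromosome 11, 122928197 to 122933938, minus strand) had 508, 407 and 694 counts in SOX9 sgRNA libraries, against 413, 386 and 371 in control libraries. Scaled values overlapped, at 605.5 ± 73.5 CPM against 525.0 ± 31.5 CPM (SD, n = 3 each). A log2 fold change of 0.21 (SE 0.0966 and adjusted p = 0.19 by edgeR) did not pass, and with library totals it was 0.39 (adjusted p = 0.0033). No exon lies opposite HSPA8. The small nucleolar RNA genes SNORD14C and SNORD14D, which lie within it on the same strand, had at most 3 counts in any library. Of its 50-base words, 15.4% also occur in transcripts of 10 other genes, led by HSPA8P1.

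HSP90AA1 (ENSG00000080824, chromosome 14, 102547075 to 102606036, minus strand), the inducible cytosolic HSP90, had 94, 89 and 129 counts in SOX9 sgRNA libraries, against 66, 67 and 65 in control libraries. The groups did not overlap, at 118.2 ± 6.55 and 88.9 ± 4.24 CPM (SD, n = 3 each), but the log2 fold change of 0.41 (SE 0.19) had an edgeR adjusted p of 0.19. With library totals it was 0.60 (adjusted p = 0.028). Its opposite row WDR20, a gene for a WD-repeat protein, overlaps it over 197 bp at its 5′ end and had 21, 34 and 38 counts in SOX9 sgRNA libraries, against 15, 28 and 29 in control libraries. That row gave 0.13 (SE 0.328 and adjusted p = 0.89 by edgeR).

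The J-domain gene DNAJB1 (ENSG00000132002, chromosome 19, 14625582 to 14640582, minus strand) was the row that was lower. It had 427, 314 and 342 counts in SOX9 sgRNA libraries, against 411, 371 and 408 in control libraries. The scaled groups overlapped, since SOX9 sgRNA library 1 (514.3 CPM) was above control library 2 (471.1 CPM). The means were 418.4 ± 91.1 and 535.5 ± 58.9 CPM (SD, n = 3 each), a log2 fold change of -0.36 (SE 0.11 and adjusted p = 0.024 by edgeR). The call was lost in 8 of 12 alternatives, among them DESeq2 (-0.37, adjusted p = 0.35), the replicate block (-0.37, adjusted p = 0.052), and library totals (-0.18, adjusted p = 0.33). It was also lost without SOX9 sgRNA library 2 (-0.35) or 3 (-0.22) and without control library 1 (-0.35) or 3 (-0.30), while without SOX9 sgRNA library 1 it was -0.54.

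Opposite the first 211 bp of DNAJB1 lies TECR, which encodes a reductase of very-long-chain fatty acid synthesis. TECR had 73, 74 and 74 counts in SOX9 sgRNA libraries, against 99, 73 and 72 in control libraries, with a log2 fold change of -0.37 (SE 0.201 and adjusted p = 0.30 by edgeR). Control library 1 was highest after scaling (132.2 CPM), and the other 5 libraries, with 72 to 74 counts, ran from 72.0 to 103.5 CPM. Without control library 1 the log2 fold change of TECR was -0.22. ENSG00000207707, which lies over its whole 98 bp opposite DNAJB1, had 8, 5 and 2 counts in SOX9 sgRNA libraries, against 7, 3 and 4 in control libraries.

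HSPA5 (ENSG00000044574, chromosome 9, 127997132 to 128003609, minus strand), the ER HSP70, had 40, 37 and 44 counts in SOX9 sgRNA libraries, against 41, 19 and 22 in control libraries. The groups overlapped through control library 1, at 46.4 ± 3.06 and 36.8 ± 16.0 CPM (SD, n = 3 each). This gave a log2 fold change of 0.33 (SE 0.304 and adjusted p = 0.60 by edgeR). No exon lies opposite it.

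HSP90B1 (ENSG00000166598, chromosome 12, 104323885 to 104347423, plus strand), the ER HSP90, had 51, 49 and 114 counts in SOX9 sgRNA libraries, against 50, 72 and 50 in control libraries. SOX9 sgRNA library 3 was above the other 5 libraries (111.0 CPM). This gave a log2 fold change of 0.05 (SE 0.229 and adjusted p = 0.93 by edgeR), and -0.30 without that library (adjusted p = 0.61). ENSG00000265072, which lies in HSP90B1 on the same strand, had 21 counts in SOX9 sgRNA library 3 and 2 to 9 in the others, and fragments over both count for both. Its opposite rows were low. UQCC6, a gene for a factor of mitochondrial complex III assembly, overlaps it over 121 bp near the 3′ end and had 14, 12 and 6 counts in SOX9 sgRNA libraries, against 10, 21 and 15 in control libraries (log2 fold change -0.72, SE 0.479 and adjusted p = 0.43 by edgeR). TTC41P, a pseudogene over the first 105 bp, had 4, 0 and 1 counts in SOX9 sgRNA libraries, against 2, 5 and 5 in control libraries.

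CALR (ENSG00000179218, chromosome 19, 13049392 to 13055303, plus strand) had 280, 310 and 419 counts in SOX9 sgRNA libraries, against 216, 222 and 175 in control libraries. All SOX9 sgRNA libraries were above all control libraries, at 382.7 ± 39.4 and 274.0 ± 19.6 CPM (SD, n = 3 each). This gave a log2 fold change of 0.48 (SE 0.116 and adjusted p = 0.0022 by edgeR), a 1.4-fold rise. It stayed between 0.42 and 0.56 when any 1 library was left out. CALR shared none of its 50-base words with a transcript of another gene.

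ENSG00000267458 (chromosome 19, 13054932 to 13055301, minus strand), whose 270 bp of exon all lie opposite the 3′ end of CALR, had the highest counts of the 15 rows. It had 1095, 1001 and 1228 counts in SOX9 sgRNA libraries, against 739, 761 and 719 in control libraries. Again the groups did not overlap, at 1271.7 ± 66.7 and 995.6 ± 34.6 CPM (SD, n = 3 each). This gave a log2 fold change of 0.35 (SE 0.0768 and adjusted p = 6.30e-04 by edgeR), a rise of 1.28-fold.

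**Figure D2:**
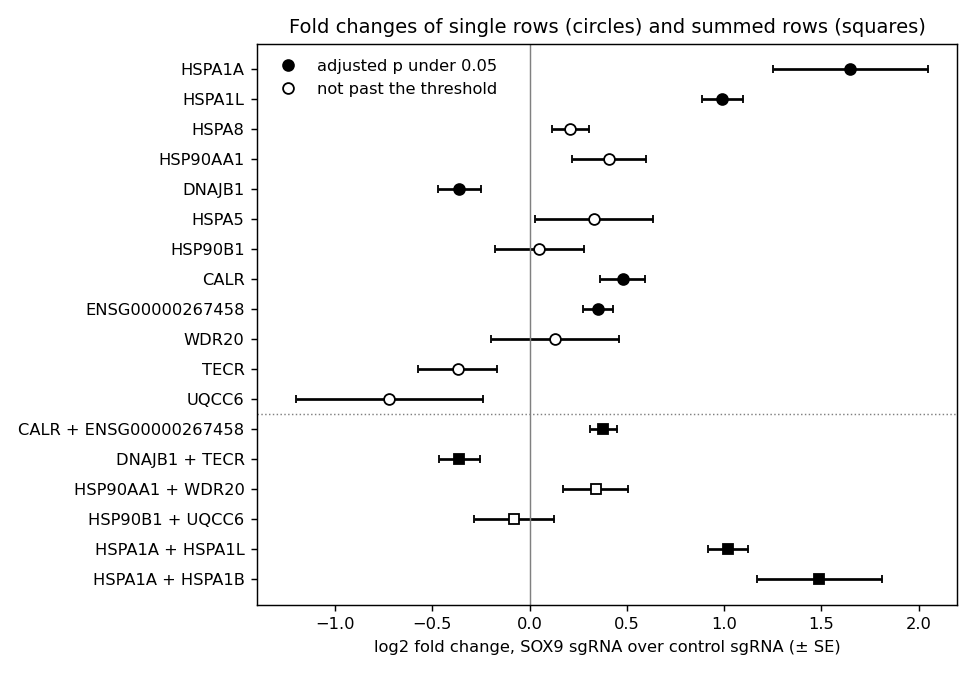
Log2 fold change of SOX9 sgRNA over control sgRNA with its SE for the 12 tested rows (circles) and for summed rows (squares), filled where the edgeR adjusted p is under 0.05. HSPA1A (1.65), HSPA1L (0.99), CALR (0.48) and ENSG00000267458 (0.35) lie above 0 and DNAJB1 (-0.36) below.

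Per kilobase of exon, the row opposite CALR stood far above the others. Its exon length is 270 bp, however, against 2433 to 7328 bp for the other tested rows. How far so short a length raises a level per kilobase was not tested. In SOX9 sgRNA libraries the mean level was 4710.1 CPM per kilobase for ENSG00000267458, 237.0 for HSPA1L, 141.0 for CALR, 124.9 for HSPA8 and 114.0 for DNAJB1, against 3687.3, 119.2, 100.9, 108.3 and 145.8 in control libraries. Every other tested row was at or below 23.9 CPM per kilobase in each library. CALR, HSPA8 and DNAJB1 had overlapping ranges over libraries, from 92.7 to 150.3, from 101.1 to 139.3 and from 90.7 to 159.8 CPM per kilobase, so no order between them is shown. HSPA1A, from 2.36 to 18.3, was low, and HSPA1B ran from 2.85 to 11.0.

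The division of counts between the rows of a pair differed widely between loci. Shares were taken over all exons of both genes, not over the shared bases alone. The overlap was 2.69% to 3.91% of the exon length of HSPA1L, WDR20, TECR and UQCC6, and 100.0% of that of ENSG00000267458. At the HSPA1A locus, the HSPA1L row held 94.0%, 95.5% and 93.1% of the counts of the pair in SOX9 sgRNA libraries, against 94.0%, 96.6% and 98.3% in control libraries. At the CALR locus, ENSG00000267458 held 79.6%, 76.4% and 74.6% in SOX9 sgRNA libraries, against 77.4%, 77.4% and 80.4% in control libraries. At the other loci the member held most of the counts: TECR had 14.6% to 19.1% of the counts of its pair with DNAJB1 in SOX9 sgRNA libraries and 15.0% to 19.4% in control libraries.

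The difference in mean share, SOX9 sgRNA minus control, was -2.12 percentage points for HSPA1L, -1.56 for ENSG00000267458, 0.202 for TECR, -3.4 for WDR20 and -5.37 for UQCC6. Two-sided exact permutation tests gave p = 0.20, 0.40, 1.0, 0.50 and 0.50 for these 5 pairs with n = 3 each, where the smallest p possible is 0.10, and adjusted over the 5 pairs the permutation p-values were 0.625 or, for TECR, 1.0. With 3 libraries a group these tests could not reach 0.05, and whether the fold changes of HSPA1A and HSPA1L differ was not otherwise tested. UQCC6 held 5.0% in SOX9 sgRNA library 3 (exact 95% interval 1.86% to 10.6%). It held 21.5% and 19.7% in SOX9 sgRNA libraries 1 and 2, against 16.7% to 23.1% in the control libraries. Without SOX9 sgRNA library 3 the difference for UQCC6 was -0.169 percentage points. Intervals cover counting error only.

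**Figure D3:**
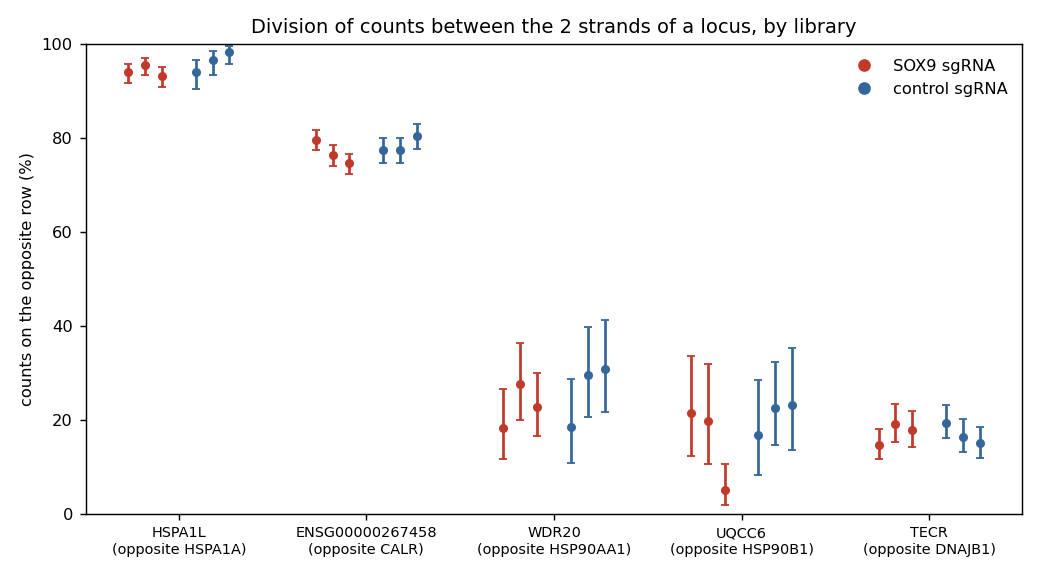
Percentage of the counts of a pair that lay on the opposite row, by library, with exact 95% intervals, for 5 loci; SOX9 sgRNA is left of control sgRNA. HSPA1L and ENSG00000267458 held most counts of their pairs, and WDR20, UQCC6 and TECR the minority, in both groups.

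Within the bases that both exons share, counts summed over the rows of a locus do not depend on the strand a fragment was assigned to. The sums below are of whole rows, however, and outside those bases they can still depend on it. The shared bases were 3.29% of the exon length of HSPA1A and 3.05% of that of HSPA1L. Most counts of that sum were those of HSPA1L, whose row alone gave 0.99. The sum of HSPA1A and HSPA1L was 613, 509 and 596 in SOX9 sgRNA libraries, against 252, 234 and 237 in control libraries, a log2 fold change of 1.02 (SE 0.103 and adjusted p = 2.16e-12 by edgeR). For CALR and ENSG00000267458 it was 1375, 1311 and 1647 in SOX9 sgRNA libraries, against 955, 983 and 894 in control libraries (0.38, SE 0.0713 and adjusted p = 5.34e-05 by edgeR). The groups did not overlap in either sum. The sum of DNAJB1 and TECR was lower by the same amount as DNAJB1 alone (-0.36, SE 0.103 and adjusted p = 0.015 by edgeR), and was not past the threshold with library totals (-0.18), with DESeq2 (-0.37) or without SOX9 sgRNA library 3 (-0.22) or control library 1 (-0.33) or 3 (-0.32). For HSP90AA1 and WDR20 the sum gave 0.34 (SE 0.167 and adjusted p = 0.22 by edgeR), and for HSP90B1 and UQCC6 -0.08 (SE 0.206 and adjusted p = 0.89 by edgeR).

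Beyond these members, 9 lists of chaperone genes and their regulators held 127 genes, of which 126 matched an identifier and 78 were tested. Of these, 3 were higher and 5 lower, where 2.99% and 6.02% of all tested genes were, so that the shares are near the background (7 and 3 with library totals, against 7.85% and 3.13% of all tested genes), with a median log2 fold change of 0.01, equal to that of all tested genes. In the HSP70 and HSP110 list, 2 of 7 tested were higher, HSPA1A and HSPA1L, and 1 was lower, HSPA14, an HSP70 of the ribosome-associated complex. HSPA14 had 12, 24 and 28 counts in SOX9 sgRNA libraries, against 39, 31 and 36 in control libraries (log2 fold change -0.97, SE 0.323 and adjusted p = 0.045 by edgeR), with groups that did not overlap, and lost its call in 8 of 12 alternatives, among them those without SOX9 sgRNA library 1 (-0.71) or 3 (-1.07) or control library 1 (-0.91) or 3 (-0.91), DESeq2 (-0.99) and the replicate block (-0.99). The median of that list was 0.43.

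Chaperonins are barrel-shaped complexes in which proteins fold, and prefoldin hands them clients. Of 11 tested genes of this list, 2 were lower and 0 higher in edgeR, against 6.02% and 2.99% of all tested genes, and DESeq2 called 2, where it called 5.69% of all genes lower. In edgeR 3 had an unadjusted p under 0.05, and the median was -0.21. CCT7, a subunit of the cytosolic chaperonin TRiC, did not pass (-0.31, SE 0.155 and adjusted p = 0.24 by edgeR). TCP1, another TRiC subunit, had 246, 244 and 396 counts in SOX9 sgRNA libraries, against 441, 508 and 353 in control libraries. After scaling the groups did not overlap, at 333.0 ± 46.7 and 580.5 ± 69.1 CPM (SD, n = 3 each; log2 fold change -0.80, SE 0.107 and adjusted p = 2.88e-08 by edgeR). HSPE1, the mitochondrial co-chaperonin, had 294, 306 and 396 counts in SOX9 sgRNA libraries, against 422, 396 and 382 in control libraries (-0.51, SE 0.101 and adjusted p = 1.76e-04 by edgeR). Both lie opposite other genes: TCP1 opposite ACAT2, a thiolase gene of cholesterol synthesis, over 454 bp, and HSPE1 opposite HSPD1, its partner chaperonin, over 281 bp. HSPD1 itself gave -0.02 (edgeR adjusted p = 0.98).

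Among the 20 tested genes of ER chaperones and folding enzymes, CALR was higher and TXNDC5, a protein disulfide isomerase gene, was lower. Over all tested genes, 2.99% were higher and 6.02% lower. TXNDC5 had 25, 21 and 52 counts in SOX9 sgRNA libraries, against 99, 66 and 51 in control libraries (-1.39, SE 0.26 and adjusted p = 5.57e-05 by edgeR), and lies opposite BMP6 over 173 bp. After scaling its groups did not overlap. The isomerase gene P4HB gave -0.31 (SE 0.123 and adjusted p = 0.12 by edgeR), and the list's median was 0.02. Among 10 tested J-domain genes DNAJB1 alone passed (median -0.10), where 9.01% of all tested genes did. DNAJB6 gave -0.48 and DNAJC5 0.52 (edgeR adjusted p = 0.35 and 0.41).

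In the HSP90 and co-chaperone list 0 of 11 tested genes passed in edgeR and 0 in DESeq2. Of all tested genes, 9.01% and 7.70% passed. In that list 3 had an unadjusted p under 0.05, a cut whose share of all tested genes was not counted, and the median was 0.10. UNC45A, a myosin chaperone, had the smallest p of that list (-0.79, SE 0.274 and adjusted p = 0.058 by edgeR), with groups that did not overlap. The ubiquitin ligase gene STUB1, which tags HSP70 clients, gave -0.37 (SE 0.164 and adjusted p = 0.17 by edgeR). In the remaining lists 0 genes passed in edgeR, 0 in DESeq2, and 0 at an unadjusted p under 0.05. Of 5 tested nucleotide exchange factor genes, BAG3, a heat shock factor target, gave 0.43 (SE 0.27 and adjusted p = 0.39 by edgeR). Both tested small heat shock protein genes, HSPB1 (0.14, SE 0.228 and adjusted p = 0.81 by edgeR) and HSPB6 (0.72, SE 0.501 and adjusted p = 0.45 by edgeR), and the heat shock factor gene HSF1 (-0.07, SE 0.219 and adjusted p = 0.92 by edgeR, and 0.12 with library totals) did not pass. The 11 tested genes of the unfolded protein response had a median of -0.16, with DDIT3, the stress factor CHOP, at -0.35 (SE 0.203 and adjusted p = 0.33 by edgeR). MARS1, opposite DDIT3 over 355 bp, was higher and is given below. Which gene's RNA either row counts was not tested.

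**Figure D4:**
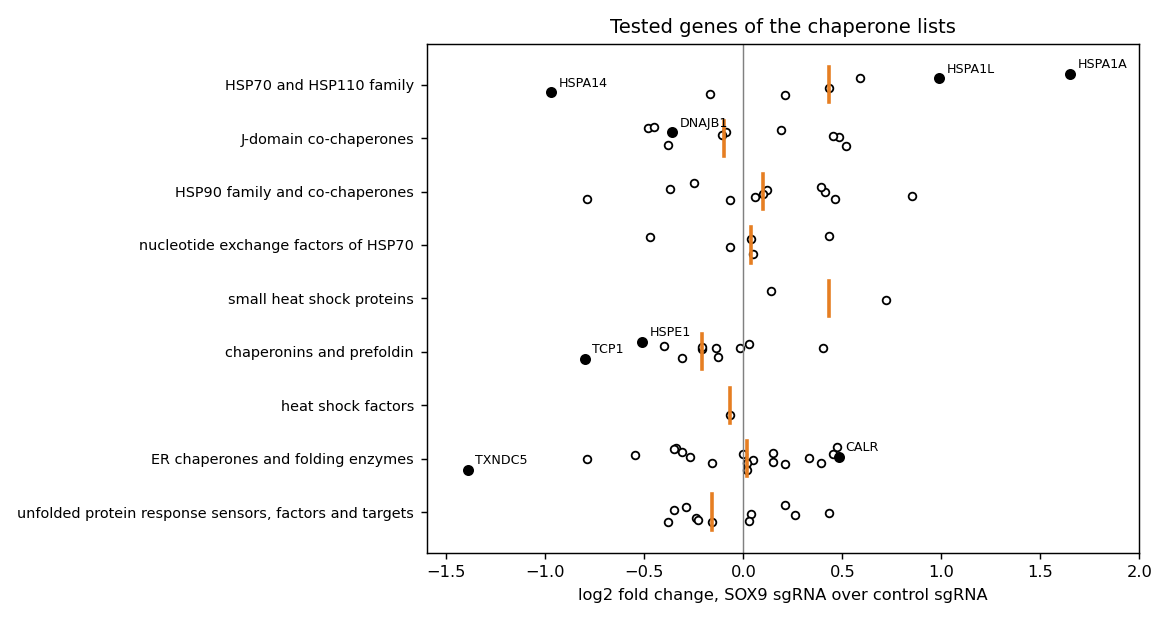
Log2 fold change of SOX9 sgRNA over control sgRNA for every tested gene of 9 lists; filled points are past an edgeR adjusted p of 0.05 and orange bars are list medians. The HSP70 and HSP110 list has a median of 0.43 and the chaperonin and prefoldin list one of -0.21, and 40 of the 78 genes lie above 0.

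Of the listed genes, 52 had an exon opposite, and the opposite row (that of largest overlap) held more counts in 31 of them. PPIB, an abundant ER cyclophilin gene, had 101 counts summed over SOX9 sgRNA libraries and 94 over control libraries, while SNX22 opposite it had 6251 and 7027. The opposite row of P4HB had 6060 counts in SOX9 sgRNA and 6373 in control libraries, where P4HB itself had 694 and 729. For CANX, the membrane-bound partner of calreticulin, the gene itself held 2185 counts in SOX9 sgRNA and 1668 in control libraries, and the opposite row CBY3 55 and 64. Per the file headers the counts use strand setting 1 of the counting program. Whether that setting matches the strand that the library kit reads was not tested. Nor was it tested whether a row counts RNA of its own gene or of the gene opposite, for HSPA1L, ENSG00000267458 and DNAJB1 as for the others.

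**Figure D5:**
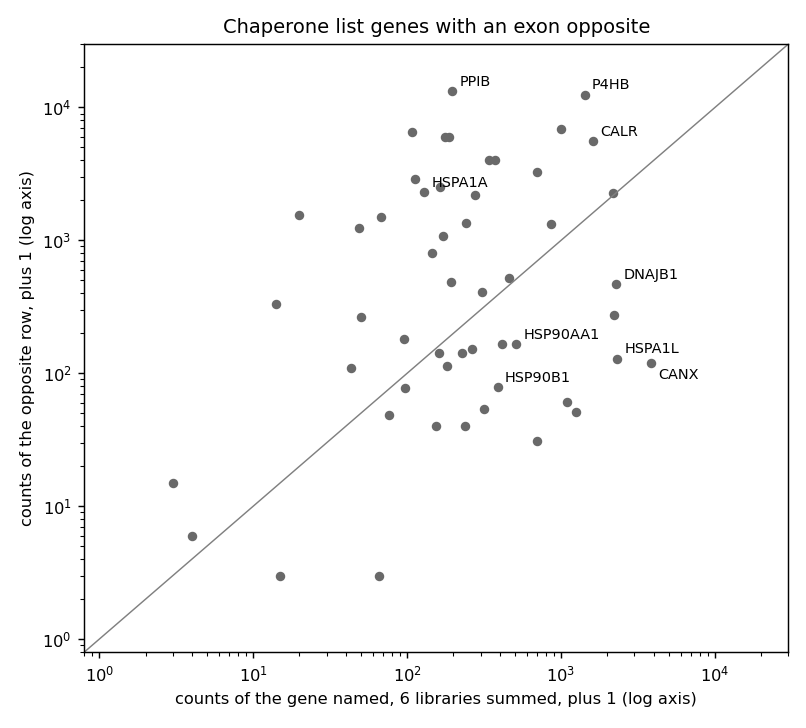
Counts of 52 chaperone list genes (x) against those of the row opposite them (y), summed over 6 libraries with 1 added, both axes logarithmic. Points above the diagonal, 31 in all, have more counts on the opposite row; HSPA1A, CALR, PPIB and P4HB are among them, and DNAJB1, HSPA1L and CANX are below.

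Of 41 tested opposite rows of the listed genes, 4 were higher and 6 lower, where 3.40% and 7.86% of all 5003 tested genes with an exon opposite were. These rows, members aside, were picked out after their values were seen. Besides HSPA1A, HSPA1L and ENSG00000267458, the higher one was MARS1, a methionyl-tRNA synthetase gene opposite DDIT3 over 355 bp, with 113, 124 and 130 counts in SOX9 sgRNA libraries, against 56, 50 and 47 in control libraries (log2 fold change 1.04, SE 0.195 and adjusted p = 5.96e-05 by edgeR). Its groups did not overlap, and it kept its call in each alternative.

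Among the 6 lower opposite rows, the largest fall was that of DNASE1, opposite TRAP1, the mitochondrial HSP90. DNASE1, which encodes a secreted nuclease, had 485, 452 and 583 counts in SOX9 sgRNA libraries, against 854, 906 and 772 in control libraries (-0.97, SE 0.0827 and adjusted p = 2.23e-15 by edgeR), while TRAP1 itself gave 0.39 (edgeR adjusted p = 0.35). ENSG00000271980, opposite the TRiC subunit gene CCT5 over 1757 bp, fell by 0.61 (SE 0.0775 and adjusted p = 6.12e-09 by edgeR), and CCT5 itself gave -0.40 (edgeR adjusted p = 0.51). SNX22 opposite PPIB fell by 0.40 (SE 0.063 and adjusted p = 1.92e-06 by edgeR). The row opposite P4HB, ENSG00000262831, fell by 0.30 (SE 0.0639 and adjusted p = 4.81e-04 by edgeR), and ENSG00000258092, opposite the immunophilin gene FKBP4, by 0.38 (SE 0.0776 and adjusted p = 2.05e-04 by edgeR). With library totals these last calls were lost, at -0.12 (adjusted p = 0.24) and -0.20 (adjusted p = 0.078). The row opposite HSPD1 is HSPE1, given above. Of 11 tested rows opposite genes of the ER list, 1 was higher, that opposite CALR, and 2 were lower, those opposite PPIB and P4HB. Over all tested genes with an exon opposite, 3.40% were higher and 7.86% lower. The groups did not overlap in 4 of the 11 rows, where they did not in 24.5% of all tested genes.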

How the data were processed

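The deposited values are whole-number counts of fragments per gene, 1 table per library, without normalization. The submitters' processing notes name STAR 2.7.10a and the build GRCh37 (hg19). Fragments were counted over Ensembl GRCh37.75 exons by featureCounts 1.6.2 with strand setting 1, per the file headers, and a fragment could count for every gene it overlapped. The annotation left out ribosomal RNA and the mitochondrial chromosome. Libraries were made with a stranded SMARTer Pico kit, per the labels' protocols. Low totals limit precision.

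Symbols came from a table of Ensembl identifiers. Exon overlaps were found with bedtools 2.31.1. SOX9 sgRNA was compared with control sgRNA in R 4.3.3 with edgeR 4.0.16: filterByExpr, TMM factors, robust quasi-likelihood fit, Benjamini-Hochberg over all tested genes, threshold 0.05. The SE is the fold change over the root of F. Alternatives were library totals, RLE factors, DESeq2 1.42.0, other filters, a replicate block and leaving out each library. The fit was tested on simulated data. Named genes were SOX9, the members and, per list, up to 3 genes of smallest adjusted p; others, namely CANX, PPIB, HSPD1, TRAP1, CCT5, FKBP4 and the opposite rows, were picked after their values were seen. Members and lists were chosen with earlier results of these data known. Promoter sequences are RefSeq's. One marker of another cell type is not reported here.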

Additional observations from a re-analysis of the deposited data

How the results depend on the processing

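The number of genes past the threshold was 717, between 574 and 874 under the alternatives that kept every library, and 525 to 637 when 1 library was left out. The higher and lower calls were 625 and 249 with library totals. Of the member rows, 5 passed, and 3 with the stricter filter, which left HSPA1A untested; leaving out a library gave 4 to 5. HSPA1L, CALR and ENSG00000267458 kept their calls in all 12 alternatives, and HSPA1A in the 11 that tested it. The sum of DNAJB1 and TECR was weaker with library totals (-0.18, adjusted p = 0.29) and DESeq2 (-0.37, adjusted p = 0.28), and ranged from -0.51 to -0.22 when 1 library was left out. The sum of HSP90AA1 and WDR20 was past the threshold with library totals (0.53, adjusted p = 0.029). That of HSP90B1 and UQCC6 changed sign with library totals (0.11) and ranged from -0.31 to 0.08 without 1 library. Signs also turned for HSF1 with library totals (0.12) and without 1 library for HSP90B1 (-0.30 to 0.20), WDR20 (-0.13 to 0.33), BAG2 (-0.12 to 0.23) and HSPB1 (-0.03 to 0.26). CCT7 passed without SOX9 sgRNA library 2 (-0.54). The cause was not tested.

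Deviations of same-numbered libraries correlated at -0.00287, 0.0193 and -0.0109, and those of differently numbered libraries at -0.0345 to 0.0368. No pairing by replicate number was seen, but low counts could hide one, so this check cannot exclude it. With the replicate number as a block, 574 genes passed, 175 higher and 399 lower, and of the member rows 4, DNAJB1 being lost.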
